A study of Homo sapiens with 2 samples.

Results

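Formins, the large family of actin filament nucleators and elongators to which DAAM1 belongs, were examined in MDA-MB-231, an established human breast cancer cell line that lacks hormone receptors and has a mesenchymal character. The set held 10 formin genes, DAAM1, DAAM2, DIAPH1, DIAPH2, DIAPH3, FMNL1, FMNL2, FMNL3, FHOD1 and INF2, out of 22411 genes on the array that had at least 1 probe set naming no other gene. Each of the 10 was read by 1 probe set that names that gene alone. The study compared stable derivatives of the line: control cells that carry the pLKO.1 vector, and cells that carry pLKO.1 with a short hairpin RNA against SREBP1, a transcription factor of lipid synthesis encoded by SREBF1. By their labels, the arrays of these derivatives are called the vector array and the hairpin array below. Both were grown in high-glucose DMEM with serum, each was represented by 1 array, and the labels do not say whether a derivative is a clone or a pool. The set was chosen by family membership around DAAM1, which was itself selected on its low signal on the hairpin array, and no spread between replicates exists, so every difference below is a description of 2 arrays, with no test.

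Formins share an FH1 domain, which binds profilin-actin, and an FH2 domain, which forms a ring-like dimer on the fast-growing barbed end of an actin filament and adds subunits there. Many are held inactive by a contact between their ends. They build unbranched filaments in filopodia, stress fibres and the contractile ring, in contrast to the branched networks of the Arp2/3 complex. DAAM1 is known to bind Dishevelled and to act downstream of Frizzled receptors in planar cell polarity signalling.

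Because the hairpin was directed at a promoter-binding factor, the 250 bases before the first annotated start are shown for the formin with the lowest difference between the hairpin and vector arrays, DAAM1, the next lowest, FMNL2, and the highest 2, FMNL3 and DIAPH1. They come from RefSeq on GRCh38.p14, where all 10 symbols matched, and lie at chr14:59188417-59188666 on the plus strand for DAAM1, chr2:152334924-152335173 on the plus strand for FMNL2, chr12:49707406-49707655 on the minus strand for FMNL3 and chr5:141619001-141619250 on the minus strand for DIAPH1. Each reads 5′ to 3′ on the strand of its gene. Capitals mark an E-box (CANNTG) or a CCAAT box (CCAAT, or ATTGG where it lies on the other strand).
DAAM1: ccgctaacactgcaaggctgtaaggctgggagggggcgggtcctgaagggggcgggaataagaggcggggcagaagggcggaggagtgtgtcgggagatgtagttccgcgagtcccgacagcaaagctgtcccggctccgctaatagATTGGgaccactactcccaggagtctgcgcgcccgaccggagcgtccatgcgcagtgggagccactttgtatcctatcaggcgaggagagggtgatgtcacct
FMNL2: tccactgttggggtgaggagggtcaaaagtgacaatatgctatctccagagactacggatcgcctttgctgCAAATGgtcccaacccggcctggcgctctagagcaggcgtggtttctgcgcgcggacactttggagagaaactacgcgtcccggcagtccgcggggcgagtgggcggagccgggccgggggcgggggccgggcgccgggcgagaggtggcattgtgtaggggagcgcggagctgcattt
FMNL3: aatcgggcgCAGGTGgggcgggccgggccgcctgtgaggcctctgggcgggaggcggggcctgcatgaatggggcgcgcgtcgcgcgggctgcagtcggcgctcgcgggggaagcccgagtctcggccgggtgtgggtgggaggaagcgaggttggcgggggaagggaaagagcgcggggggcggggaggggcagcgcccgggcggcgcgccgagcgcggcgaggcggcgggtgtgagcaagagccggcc
DIAPH1: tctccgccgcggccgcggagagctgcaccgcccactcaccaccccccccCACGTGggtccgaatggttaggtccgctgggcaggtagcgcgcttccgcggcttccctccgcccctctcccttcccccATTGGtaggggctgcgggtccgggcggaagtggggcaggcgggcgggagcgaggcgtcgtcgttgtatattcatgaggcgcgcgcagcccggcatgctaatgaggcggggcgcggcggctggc

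In these windows DAAM1 held a CCAAT box at position -103 from the start and no E-box, FMNL2 an E-box at -179, FMNL3 an E-box at -241, and DIAPH1 the palindromic E-box CACGTG at -201 with a CCAAT box at -123. Positions give the first base of the match on the printed strand, and both strands were searched. Over the first listed start of each gene, the E-box occurred in 6 of 10 formins and in 62.2% of 27305 genes. CACGTG, which is also counted as an E-box, occurred in 3 of 10 formins, DIAPH1, DIAPH2 and INF2, and in 6.49% of genes. The CCAAT box occurred in 4 of 10 formins and 33.0% of genes, and the GC box GGGCGG, which is not in capitals, in 10 of 10 and 42.3%. TCACNCCAC, a form of the sterol regulatory element, was not among the letters of any of the 10 windows and was found in 0.875% of genes. RefSeq lists a second start for DAAM1, and its window held E-boxes at -191 and -160. Each later start listed for DAAM2, DIAPH3 and INF2 also held an E-box, with those of DAAM2 at -175, -96 and -57. Over all 16 listed starts of the formins, 12 held an E-box, beside 61.8% of 35116 starts of all genes. The GC box occurred in 11 of these 16 and 42.6% of the 35116, and CACGTG in 3 and 6.34%. The CCAAT box occurred in 4 of the 16. First-start windows of the 10 formins were rich in G and C, from 61.6% in DAAM2 to 79.2% in FMNL3. The median over all 35116 starts was 58%. Enrichment among windows of like G and C content was not tested, so the motif counts are not read as a property of formins. A match is a run of letters and not a measured binding site. By first starts, the groups with and without an E-box each held formins that were higher and formins that were lower on the hairpin array.

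The values are RMA log2 signals, which summarise the probes of a set after normalization, so that 1 unit is a doubling of signal. Levels are compared between arrays for the same gene. Signals of different genes come from different probes and are not compared as amounts of RNA. An expression floor of 3.21 log2 units was set at the 95th percentile of 366 olfactory receptor genes, which breast cells are not known to use, and 15684 genes had their higher value above it. All 10 formins were above the floor on both arrays. Over the 15684 genes the median difference, hairpin array minus vector array, was 0.012 log2 units with an SD of 0.19, and Pearson's r between the arrays was 0.992 across genes, which are not independent replicates. All 6 mesenchymal markers exceeded the floor, from ZEB1 at 6.40 and 6.28 to MSN at 10.1 and 10.4, and 4 were higher and 2, CAV1 and ZEB1, lower on the hairpin array. Of 7 epithelial or luminal markers, 4 exceeded it on at least 1 array, from CDH1, the epithelial cadherin, at 3.32 and 3.16 to EPCAM at 5.14 on both, while the receptors ESR1 and PGR lay below it and ERBB2 was on a shared probe set. Of the leukocyte markers reported here, CD3E, at 3.53 and 3.66, and CD14, at 4.31 and 3.96, exceeded the floor and PTPRC did not. Of 3 fibroblast markers, PDGFRB and COL1A1 exceeded it, with values from 4.19 to 5.01 over both arrays, and DCN did not. SREBF1 itself read 5.13 on the vector array and 5.29 on the hairpin array, 1.11-fold higher. The directions below therefore go by the array labels, since no lower SREBF1 signal was measured.

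DAAM1 was the formin that stood apart. Its probe set, TC14000356.hg.1, read 5.90 log2 units on the vector array but 4.87 on the hairpin array. The signal stayed 1.67 log2 units above the floor on the array where it was lower. The difference was -1.03 log2 units, or 2.04-fold lower. Only 15 of the 15684 genes had a lower difference, and among the 1000 genes nearest to it in mean signal, whose differences had an SD of 0.19, only 3 did. DAAM1 was thus at -5.41 of those SDs, a position that includes the selection of the gene for its low value. In RNA from a whole culture, fewer cells with DAAM1 RNA and less of it per cell cannot be told apart.

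At a threshold of 1.5-fold, DAAM1 was the 1 formin of 10 that was lower, and no formin was higher. Among all 15684 genes, the share lower by at least 1.5-fold was 0.752% and the share higher was 0.383%. The set was built around DAAM1, so its count is not read against that share. At 2-fold, the count among formins was again 1 lower, DAAM1, and 0 higher, beside 0.115% lower and 0.0191% higher among all genes. Without DAAM1, 6 of the other 9 formins were higher and 3 lower, with a range from -0.40 to 0.31 log2 units and a median of 0.084. For comparison, 52.2% of all genes were higher and 41.2% lower, and the rest read exactly the same on both arrays.

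**Figure D1:**
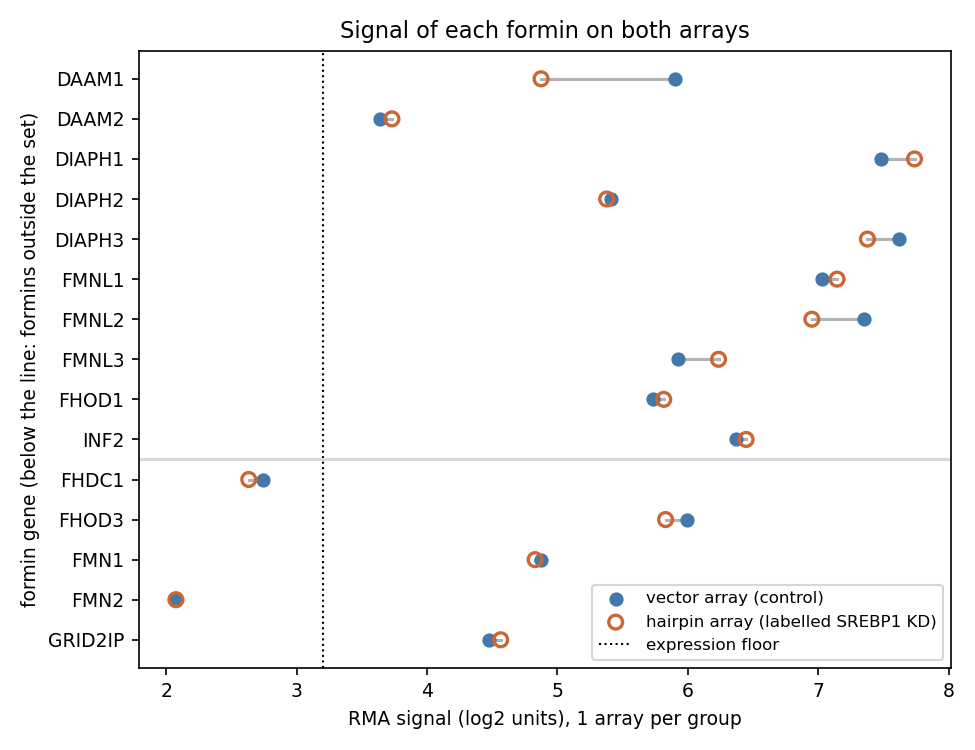
RMA signal in log2 units (x axis) of each formin (y axis) on the vector array (filled points) and the hairpin array (open points), 1 array each, with the expression floor as a dotted line and formins outside the set of 10 below the grey line. DAAM1 has the widest gap, from 5.90 to 4.87, and both of its values lie right of the floor.

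DAAM2, the paralogue of DAAM1 and a modulator of Wnt signalling, did not share its difference. It read 3.64 log2 units on the vector array and 3.73 on the hairpin array. Both values were above the floor by no more than 0.53 log2 units, so DAAM2 lay near the upper end of the olfactory receptor genes. The difference was 0.088 log2 units, or 1.06-fold higher, and smaller than the SD of 0.17 among genes of like signal. The differences of the 2 DAAM genes lay 1.12 log2 units apart.

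The diaphanous formins went in different directions. DIAPH1, which assembles stress fibres and stabilises microtubules, read 7.48 log2 units on the vector array and 7.74 on the hairpin array. It was 1.19-fold higher, a difference of 0.26 log2 units that 6.96% of all genes exceeded. DIAPH3, which acts in filopodia and cytokinesis, read 7.62 on the vector array and 7.38 on the other. It was 1.18-fold lower, by -0.24 log2 units, and 7.54% of all genes had a lower difference. DIAPH2, a gene linked to ovarian function, read 5.41 and 5.38 and had the smallest difference of the 10, -0.035 log2 units. Both DIAPH1 and DIAPH3 thus lay slightly beyond 1 SD of genes of like signal, at 1.31 and -1.18 SDs, and neither reached 1.5-fold.

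The FMNL subfamily held the formins next to DAAM1 in size of difference. FMNL2, an effector of Cdc42 that elongates filaments in lamellipodia and filopodia, read 7.35 log2 units on the vector array and 6.95 on the hairpin array. It was 1.32-fold lower, with a difference of -0.40 log2 units at -1.95 SDs of genes of like signal, and 2.40% of all genes had a lower difference. FMNL3, its close paralogue, read 5.92 on the vector array and 6.24 on the other. It was 1.24-fold higher, by 0.31 log2 units, which put it at 1.59 SDs, with 4.20% of all genes higher. FMNL1, best known from leukocytes, read 7.03 and 7.15 and was 1.08-fold higher, within the SD of its signal level. FMNL2 and FMNL3 differed in opposite directions, with 0.71 log2 units between their differences. Differences of the 366 olfactory receptor genes had an SD of 0.17 and ran from -0.67 to 0.57 log2 units. That range spans the differences of both FMNL2 and FMNL3. Most of these receptor genes lay under the floor, far below the signals of FMNL2 and FMNL3, so they are not genes of like signal.

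FHOD1 and INF2 were nearly level. FHOD1, which bundles actin in stress fibres and is phosphorylated by ROCK, read 5.73 log2 units on the vector array and 5.82 on the hairpin array, 1.06-fold higher. INF2, which severs as well as polymerises filaments and acts on the endoplasmic reticulum during mitochondrial fission, read 6.37 and 6.45, also 1.06-fold higher. In all, 5 of the 10 formins, DAAM2, DIAPH2, FMNL1, FHOD1 and INF2, differed by less than 1 SD of genes of like signal. The other 5, DAAM1, DIAPH1, DIAPH3, FMNL2 and FMNL3, differed by more, and DAAM1 was selected on its low value. The share of all genes beyond 1 such SD was not counted, so this split is not read as a result about formins.

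**Figure D2:**
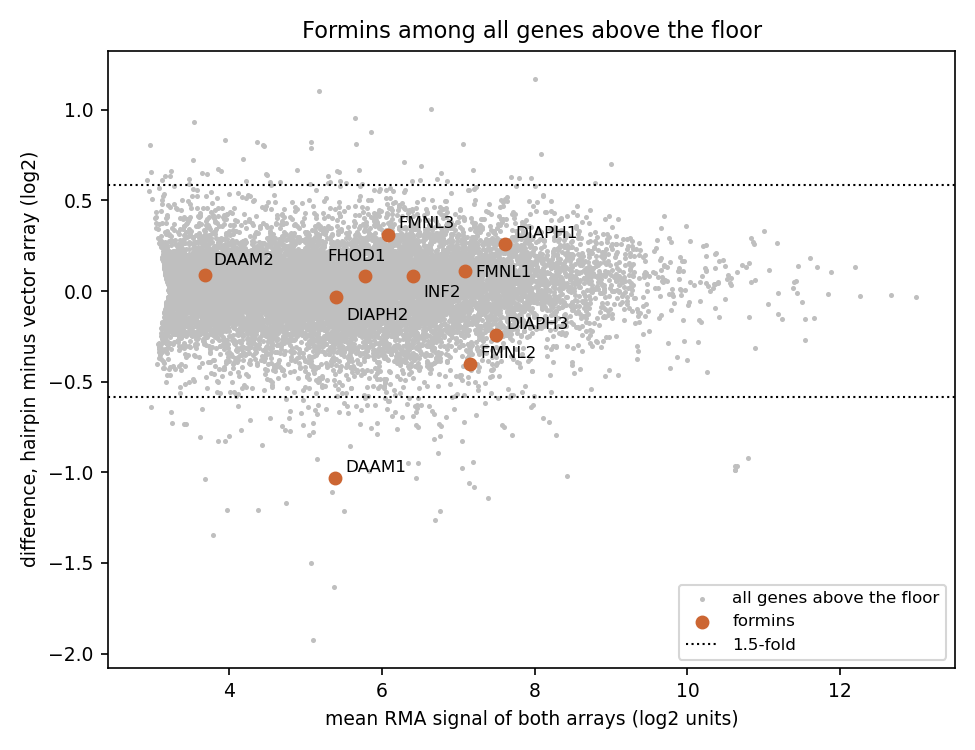
Difference between the hairpin array and the vector array in log2 units (y axis) against the mean signal of both (x axis) for all 15684 genes above the floor (grey) and the 10 formins (orange), with dotted lines at 1.5-fold. DAAM1, at -1.03, is the formin outside the dotted lines, and the other 9 lie between -0.40 and 0.31.

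The remaining 5 human formins had no difference near 1.5-fold. FHOD3, the paralogue of FHOD1 that is needed for sarcomeres in heart muscle, read 5.99 log2 units on the vector array and 5.83 on the hairpin array, 1.12-fold lower. FMN1 read 4.88 and 4.83, a difference of -0.047 log2 units. GRID2IP, known as delphilin in Purkinje cells, read 4.48 and 4.57, a difference of 0.088 log2 units. FHDC1 and FMN2, a spindle-positioning formin of the oocyte, were below the floor on both arrays, and FMN2 had the same value, 2.07, on both. Over the 13 formins above the floor, 7 were higher, 6 were lower and DAAM1 alone was past 1.5-fold.

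The DAAM1 difference kept its size under other scalings. It was -1.04 log2 units after the median difference of all genes was subtracted, -1.03 after a signal-dependent loess curve was subtracted and -1.03 after quantile normalization. FMNL2 ranged from -0.44 to -0.40 and FMNL3 from 0.29 to 0.31 over the same scalings. DIAPH1 moved the most among the higher formins, down to 0.21 after the loess curve, and DIAPH3 lay between -0.29 and -0.24. None of the 10 formins turned sign under these scalings. The scalings move genes of like signal nearly together and give no measure of the spread between replicates.

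**Figure D3:**
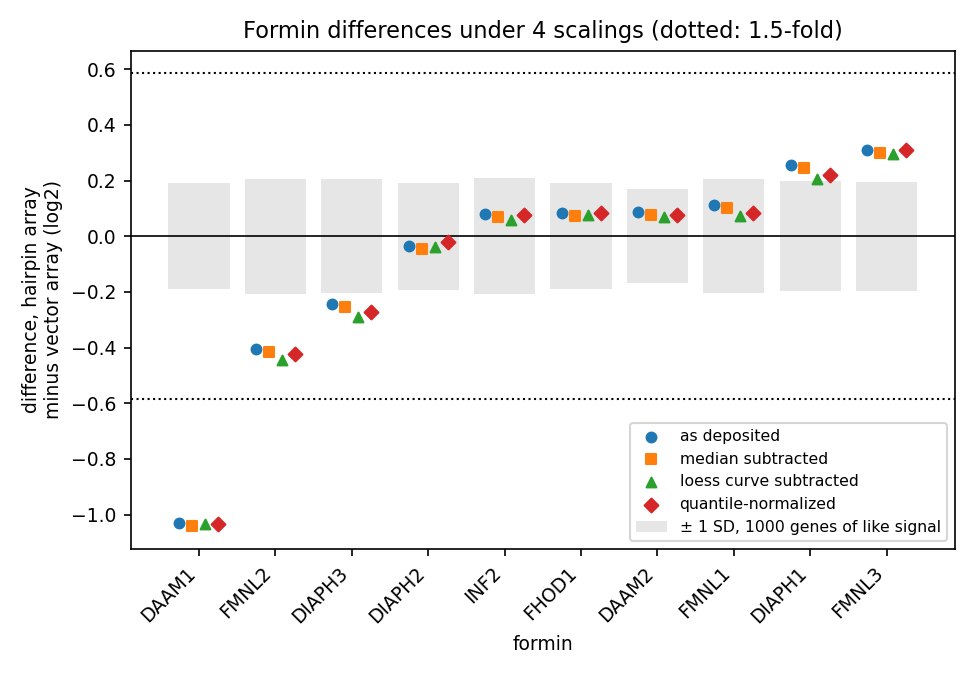
Difference between the hairpin array and the vector array in log2 units (y axis) for each formin (x axis) as deposited and under 3 other scalings, with grey bars for 1 SD either side of 0 among the 1000 genes of nearest mean signal and dotted lines at 1.5-fold. The 4 points of DAAM1 lie near -1.03, and DAAM1, FMNL2, DIAPH3, DIAPH1 and FMNL3 lie outside their grey bars.

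The protein-coding genes nearest to DAAM1 on the chromosome were compared as a local reference, a choice made after its value was seen. They were the 3 genes above the floor on either side in RefSeq order. Genes under the floor or without a probe set of their own were skipped, and distance was not measured. The differences of these genes ran from -0.28 to 0.11 log2 units, with a median of -0.039. KIAA0586, the nearest of them on one side, read 5.89 log2 units on the vector array and 5.66 on the hairpin array. GPR135, the nearest on the other side, read 5.55 and 5.27. Both were lower, by -0.22 and -0.28 log2 units, less than DAAM1. The 6 genes around FMNL2 ranged from -0.091 to 0.14.

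The genes whose pair of signals lay nearest to that of DAAM1, by Euclidean distance over the 2 arrays, were CDH11, TNFSF15, RALGPS2, LOX and COG6. CDH11, a mesenchymal cadherin, was closest, at 5.90 log2 units on the vector array and 4.79 on the hairpin array, a distance of 0.089. TNFSF15, a TNF family ligand, read 6.11 and 4.90, and LOX, which crosslinks collagen, read 6.01 and 5.16. RALGPS2 and COG6 had smaller differences, of -0.67 and -0.58 log2 units. This distance sets the signals of different probe sets side by side, so it describes like readings on 2 arrays and not like amounts of RNA.

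Genes around the formins in the pathway were read from 9 lists with 125 members, of which 106 exceeded the floor and 8 did not, while 4 shared their probe set with another gene and 7 had none that the annotation assigns to them. None of the 106 was past 1.5-fold in either direction, beside the 0.752% lower and 0.383% higher among all genes. List medians ran from -0.035 to 0.071 log2 units, beside 0.012 over all genes. At 1.2-fold, 10 of the 106 (9.43%) were lower and 3 (2.83%) higher, beside 6.54% and 6.59% of all genes, and among the 10 formins 2 were lower, DAAM1 and FMNL2, and 1 higher, FMNL3.

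Inputs of Wnt planar cell polarity signalling, the route to DAAM1, were evenly split, 10 higher and 10 lower of 22, with a median of 0. PRICKLE2, a core polarity protein, read 5.90 log2 units on the vector array and 5.46 on the hairpin array and was lowest at 1.36-fold lower. FZD4, a Frizzled receptor, was highest, by 0.26 log2 units. The Dishevelled genes DVL1, DVL2 and DVL3, named here after their values were seen because Dishevelled binds DAAM1, differed by 0.082, 0.055 and 0.070 log2 units.

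Formin-binding and regulatory proteins had 7 of 15 members higher and 8 lower. ROCK2, a kinase that drives actomyosin contraction, was the lowest of them, at 6.67 log2 units on the vector array and 6.26 on the other, 1.33-fold lower. MAPRE1, the microtubule end-binding protein EB1 that DIAPH proteins contact, was the highest, by 0.26 log2 units. Of profilins and actin monomer binders, 5 of 9 were higher, with PFN2, which hands actin to FH1 domains, at 1.19-fold higher and TMSB4X at 1.14-fold lower. Barbed-end capping and elongation factors had 4 of 9 higher and 4 lower, from EPS8 at 1.29-fold lower to ENAH at 1.19-fold higher.

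Genes of branched actin networks were also near level. The Arp2/3 complex had 5 of 8 subunits higher, with the paralogous subunits ARPC5 at 1.26-fold lower and ARPC5L at 1.15-fold higher. Its activators had 5 of 13 higher and 7 lower, from JMY at 1.27-fold lower to WHAMM at 1.17-fold higher. The other nucleators, with 4 genes above the floor, ran from COBL at 1.05-fold lower to SPIRE1 at 1.11-fold higher.

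Of actins, tropomyosins and crosslinkers 6 of 12 were higher and 6 lower. MYH10, the heavy chain of non-muscle myosin IIB, read 6.52 log2 units on the vector array and 5.96 on the hairpin array and, at 1.47-fold lower, had the lowest difference of all 106 list genes. ACTN1 was the highest of that list at 1.10-fold higher. The transcription factor SRF, its MRTF partners and their targets, which respond to the actin monomer pool, had 5 of 14 higher and 7 lower. CCN2, a target also of YAP, read 7.38 and 7.90 and was 1.43-fold higher, and MRTFB was lowest at 1.25-fold lower. At 1.2-fold, 3 of the 14, CCN2 among them, were higher and 1, MRTFB, lower, beside 6.59% and 6.54% of all genes. These 3 were all of the 106 list genes that were higher by that fold.

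**Figure D4:**
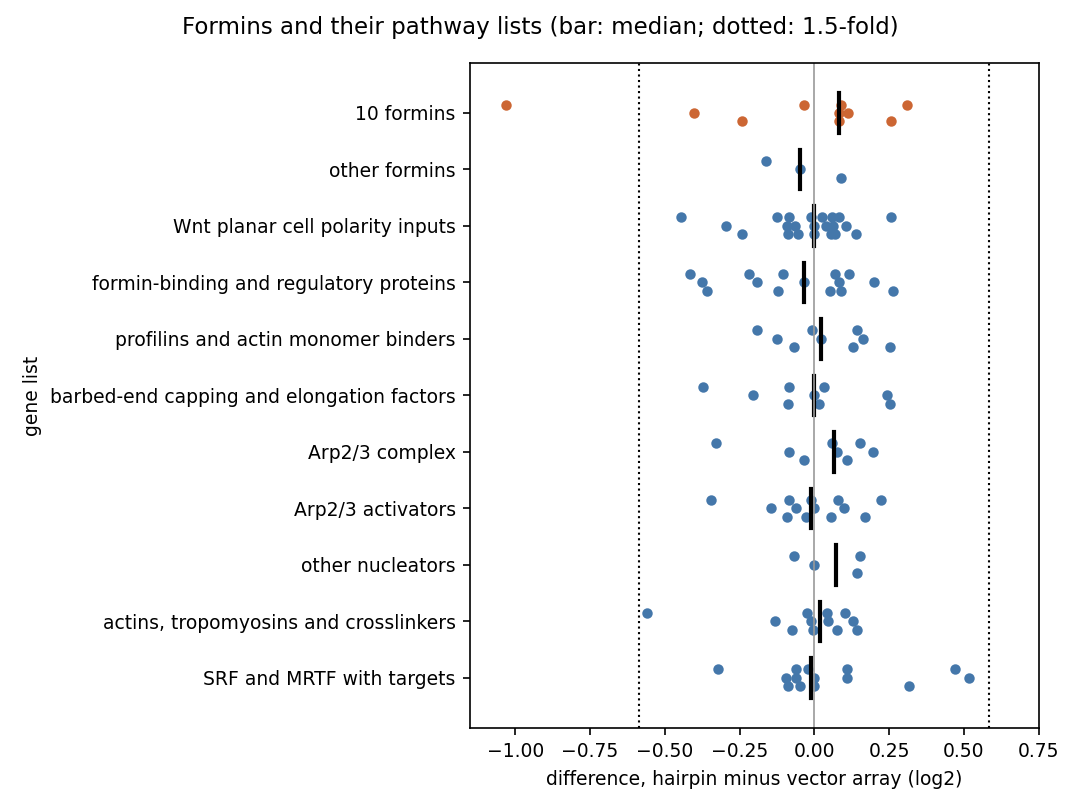
Difference between the hairpin array and the vector array in log2 units (x axis) for the 10 formins (orange) and the genes above the floor of the other formins and 9 pathway lists (blue), 1 point per gene, with a black bar at each median and dotted lines at 1.5-fold. DAAM1 is the 1 point outside the dotted lines, and the medians of the 9 lists lie between -0.035 and 0.071.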

How the data were processed

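The authors deposited log2 signals, one for every probe set on each array. Per the submitters' processing notes they used RMA and Affymetrix Expression Console, while the sources used here give neither versions nor build. These log2 values entered the comparison unchanged, and precision is limited by the number of arrays, 1 per group.

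Groups came from the genotype label. The platform annotation named 1 gene for 23781 of 70523 probe sets and several for 1543, and 45199 were unnamed here. Where a gene had several probe sets the one with the highest mean was used, and symbols were updated through RefSeq (GRCh38.p14), which held 22407 of 22411. The members and gene lists were chosen with earlier results of these data known. The named genes were all formins, SREBF1, the highest and lowest member of each list, members past 1.5-fold, the 5 genes nearest to DAAM1 and the cell line markers. Flanking genes, antisense RNAs and the Dishevelled genes were chosen after their values were seen. Some regulators of formins and some markers are not reported here. Genes of like signal were the 1000 above the floor nearest in mean signal, and differences given in their SDs are counted from 0. Alternatives changed the scaling, probe set choice, floor and threshold. The code was tested on simulated data. Tools were Python 3.11.15 with pandas 2.3.3, numpy 2.4.6, matplotlib 3.10.9 and statsmodels 0.14.6.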

Additional observations from a re-analysis of the deposited data

How the results depend on the processing

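Under the 3 other scalings, no formin difference moved by as much as 1 SD of genes of like signal from its value as deposited, and none turned sign. DAAM1 ranged from -1.04 to -1.03 log2 units. With each formin on 1 probe set and above the floor on both arrays, the choice of probe set, or setting values under the floor to it, could not change a formin difference. At 2-fold, 18 genes were lower and 3 higher, in place of 118 and 60 at 1.5-fold. At 1.2-fold, 1025 genes were lower and 1033 higher, with 2 formins lower and 1 higher, and 13 list members past the threshold in place of 0, as a lower threshold must admit more. Over 9 lists and the 10 alternatives other than the thresholds, 5 of 90 medians turned sign. These were the profilin list at -0.025 (loess) and -0.0077 (quantile), and the actin list at -0.026 (loess), -0.040 (quantile) and -0.0045 (floor 1 log2 unit higher). The Wnt and barbed-end capping lists had medians of exactly 0 as deposited, so they could not be counted as turning sign. Their medians did move, as low as -0.012 (Wnt, median subtracted) and -0.035 (barbed-end capping, loess). All 5 genes nearest to DAAM1 were found again after the loess curve was subtracted. That curve moves genes of like mean signal almost alike, so it could hardly have changed which genes were nearest. Signal over background limits DAAM2, close to the floor. No paired analysis was possible because each group has 1 array. For the same reason no replicate could be left out.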

Other observations

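Antisense RNAs were read for DIAPH2 and DIAPH3 only, and those read lay below the floor on both arrays. DIAPH2-AS1 read 2.06 log2 units on the vector array and 2.02 on the hairpin array, DIAPH3-AS1 read 2.34 and 2.37, and DIAPH3-AS2 read 2.75 and 2.52. These RNAs, like the flanking genes, were chosen after their values were seen. Flanking genes were the 3 protein-coding genes above the floor on either side of each of the 10 formins. They were taken by order alone, other genes may lie between, and distance along the chromosome was not measured. KLHL4, the 2nd before DIAPH2, had the lowest difference among them, -1.21 log2 units, from 4.58 to 3.37, while DIAPH2 itself was at -0.035. HEXIM1, the 2nd before FMNL1, was at -0.63 log2 units. MZT1, the 2nd after DIAPH3, had the highest difference, 0.48 log2 units, from 5.82 to 6.30. The lowest of the genes flanking DAAM1, GPR135, was at -0.28.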
